A study of Mus musculus with 92 samples.

Results

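Guanylate-binding proteins are described here across 92 libraries of mouse myeloid cells through the genes Gbp2, Gbp3, Gbp4, Gbp5, Gbp6, Gbp7, Gbp8, Gbp9 and Gbp10. The list was made because genes of this family rose in ER-Hoxb8 microglia-like cells of the same libraries, so that rise is given below as a description, with no test. Of the 9, 8 have a row among the 29956 named genes of the deposited table, and Gbp10 was not analysed here. The table has 1 other gene of the family, Gbp11.

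Guanylate-binding proteins are large GTPases that cells make when interferon reaches them. They gather on vacuoles that hold microbes and on bacteria in the cytosol, together with the immunity-related GTPases, and help to break these open so that microbial products reach the inflammasomes. Interferon-gamma acts through JAK1 and JAK2, while type I interferons act through JAK1 and TYK2 and a complex that holds Stat2 and Irf9, and in brain macrophages both programs are known from infection and inflammation.

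The study asks whether progenitors immortalized by a conditional Hoxb8 gene can stand in for bone marrow cells as a source of microglia-like cells, and what loss of Adar does in such cells. ER-Hoxb8 cells are bone marrow progenitors held immature by a fusion of Hoxb8 with the estrogen receptor while estradiol is present, and they differentiate when it is withdrawn. Microglia-like cells (MLCs) are cells that were injected into the brains of Csf1r KO pups, which lack microglia, at 0 to 5 days of age and were sorted from the brain 12 to 16 days later. All mice were of the FVB strain.

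The in vitro libraries of the first experiment have 3 replicates each of BM progenitors, BM monocytes and BMD (bone marrow-derived) macrophages from wild-type mice, and of ER-Hoxb8 cells with a heterozygous Cas9 transgene as progenitors at day 0, as day 4 cells and as day 7 macrophages. The brain libraries are 6 of BMD MLCs from wild-type marrow, 6 of ER-Hoxb8 MLCs labelled wild type, and 9 of microglia from wild-type mice that received no cells. Of the 6 ER-Hoxb8 MLC libraries, replicates 1 to 3 bear library names that start with GFPHox and replicates 4 to 6 names that start with WTHox. Microglia replicates 8 and 9 have names with YSWT. The donor cells of the ER-Hoxb8 MLCs and the ER-Hoxb8 macrophages in vitro therefore differ in the labelled genotype, and the hosts of the MLCs differ from the mice that gave the microglia. In the second experiment, Cas9 heterozygous ER-Hoxb8 cells carried a non-targeting guide (NTC) or a guide against Adar, as sorted populations with mixed indels. There are 3 libraries each of NTC and Adar1 KO sgRNA 1 progenitors and macrophages, 3 of Adar1 KO sgRNA 2 progenitors and 5 of sgRNA 2 macrophages, with macrophages taken after 7 days in M-CSF. In the third, NTC and sgRNA 1 macrophages were grown with 0, 0.0006, 0.016, 0.4 or 10 uM baricitinib, an inhibitor of JAK1 and JAK2. This experiment has 33 libraries, with 3 or 4 in each group, which were sequenced at another provider. Doses are those of the sample titles. The treatment protocol writes the 0.0006 uM dose with a further digit and the 0.016 uM dose with its decimal point elsewhere.

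A level below is a log2 CPM value as the authors deposited it, where CPM is a gene's count per M (10 to the power of 6) counts of its library after TMM scaling, and a difference is between means of such levels. The authors' values fall into 6 sets of libraries, each with its own lowest value, which stands for no reads, and comparisons were made only within a set. The lowest value is -4.34 for the 12 bone marrow and ER-Hoxb8 libraries of days 0 and 4, -3.62 for the 27 libraries of macrophages, MLCs and microglia, -3.43 for 11 of the NTC and sgRNA 1 libraries, -3.56 for the 8 of sgRNA 2 and -2.78 for the 33 with baricitinib. NTC macrophage replicate 2 has a lowest value of -3.09 that no other library shares, so the NTC macrophages enter the tests with replicates 1 and 3. Depth, read from the steps between values, ran from 9.5 to 25.8 M counts (median 19.8) in ER-Hoxb8 MLCs, 24.8 to 29.5 M in BMD MLCs, 16.9 to 30.3 M in microglia, 20.1 to 34.1 M in the NTC and sgRNA 1 libraries and 6.2 to 32.0 M in the baricitinib libraries. A level is called at the floor where it stands for 3 counts or fewer in its library, and folds against a group with no reads are lower bounds taken against 3 counts per library. Floors cover counting error only. In bulk samples, fewer cells of a type and less RNA per cell cannot be told apart, and p-values measure the spread between these libraries, which the paper calls biological replicates for the first experiment and the brain, while the labels do not say whether they are separate cultures or animals.

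The genes lie in 2 clusters. In the mouse annotation, Gbp5, Gbp7, Gbp3 and Gbp2 follow each other on the + strand of chromosome 3, with Gbp2b between Gbp3 and Gbp2, and Gbp8, Gbp9, Gbp4, Gbp10 and Gbp6 follow each other on the - strand of chromosome 5, beside Gbp11. Their transcripts share sequence unevenly. Of the 31-base words in the transcripts of each gene, 85% of those of Gbp10 and 57.6% of those of Gbp6 also occur in another gene of the family, against 31.1% for Gbp8, 18.3% for Gbp9, 13.5% for Gbp4, 5.64% for Gbp3, 4.85% for Gbp2, 3.69% for Gbp7 and 0.0299% for Gbp5. Gbp6 shares 51.4% of its words with Gbp10, so reads of these genes may have been split or moved between them, and the level of Gbp6 may hold reads of Gbp10.

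Promoters are shown because the members moved together in several comparisons below. RefSeq promoters, on the GRCm38.p6 build and from 250 bases before to 50 after the start site, were found for 4 of the 9 members, all from the chromosome 3 cluster and all on the + strand. Capitals mark matches, on either strand, to the core of the interferon-stimulated response element, GAAANNGAA (here all on the reverse strand, so in reverse complement), and to the gamma-activated site, TTCNNNGAA. The first occurs in 8.56% of 32851 promoters of this table, the second in 8.3% and both in 1.07%.
Gbp2, chr3:142620413-142620712: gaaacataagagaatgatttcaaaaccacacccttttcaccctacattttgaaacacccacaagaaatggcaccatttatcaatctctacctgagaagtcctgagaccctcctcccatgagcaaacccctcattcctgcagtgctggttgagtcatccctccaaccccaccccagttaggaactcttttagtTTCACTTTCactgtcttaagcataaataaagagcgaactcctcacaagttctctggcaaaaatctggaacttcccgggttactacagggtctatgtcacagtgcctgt
Gbp3, chr3:142559794-142560093: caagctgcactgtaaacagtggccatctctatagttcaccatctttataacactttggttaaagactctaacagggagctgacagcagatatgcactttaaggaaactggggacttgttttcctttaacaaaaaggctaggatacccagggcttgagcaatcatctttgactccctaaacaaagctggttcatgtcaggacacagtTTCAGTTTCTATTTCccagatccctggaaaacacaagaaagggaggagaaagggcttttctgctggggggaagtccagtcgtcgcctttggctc
Gbp5, chr3:142496684-142496983: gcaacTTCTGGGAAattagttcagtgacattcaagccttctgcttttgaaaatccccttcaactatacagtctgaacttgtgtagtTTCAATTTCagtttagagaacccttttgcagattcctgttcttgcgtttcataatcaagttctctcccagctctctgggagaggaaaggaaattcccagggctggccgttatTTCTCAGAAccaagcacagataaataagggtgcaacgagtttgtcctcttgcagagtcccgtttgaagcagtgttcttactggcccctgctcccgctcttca
Gbp7, chr3:142530086-142530385: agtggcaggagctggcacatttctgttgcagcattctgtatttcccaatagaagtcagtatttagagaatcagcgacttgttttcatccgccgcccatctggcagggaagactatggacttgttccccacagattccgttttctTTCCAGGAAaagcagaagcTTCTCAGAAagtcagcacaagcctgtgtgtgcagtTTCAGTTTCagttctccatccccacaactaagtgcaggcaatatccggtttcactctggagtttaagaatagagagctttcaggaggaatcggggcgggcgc
The promoters of Gbp2, Gbp5 and Gbp7 hold 1 match each to the response element core, starting at -58, -164 and -52 from the start site. That of Gbp3 holds 2, at -44 and -38, which overlap. Matches to the gamma-activated site were found 2 times in Gbp5, at -245 and -52, and 2 times in Gbp7, at -106 and -87. A further promoter listed for Gbp3, at chr3:142560106-142560405, holds neither. A match describes the letters and is not evidence of binding.

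The labels were checked against marker genes. Summed over the 5 microglia markers P2ry12, Tmem119, Sall1, Siglech and Olfml3, CPM ran from 25438 to 33082 in microglia, 1272 to 3956 in BMD MLCs, 55.6 to 3129.7 in ER-Hoxb8 MLCs and 3.07 to 63.6 in BMD macrophages. All 5 were above the floor in some library of both kinds of MLCs. In ER-Hoxb8 MLC replicates 1 to 3, named GFPHox, the sum was 3130, 2538 and 1160 CPM. In replicates 4 to 6, named WTHox, it was 377, 387 and 55.6 CPM, below all BMD MLC libraries, as was that of replicate 3. Replicate 6 was the lowest, with Csf1r at 6.08, P2ry12 at 4.76 and Tmem119 at 4.13, against at least 7.97, 6.59 and 7.27 in the other 5 libraries. Microglia replicate 8 stood apart over all genes, with r between 0.859 and 0.906 to the other 8 libraries, which had r of at least 0.949 to each other. The 5 macrophage markers with a row summed to between 3233 and 5749 CPM in the GFPHox libraries and 1568 and 2198 in the WTHox libraries. The sums were between 3759 and 6170 in BMD MLCs and 2591 and 17854 in microglia. Markers of other cells were present too. Summed CPM of the 8 T and NK cell markers was 41.8, 28.1, 150, 75.9, 121 and 604 in ER-Hoxb8 MLC replicates 1 to 6, of which Gzma made up 441 in replicate 6, against 11.8 to 98.2 in BMD MLCs and 2.46 to 32.8 in microglia. Neutrophil markers, led by S100a8 in both kinds of MLCs, summed to between 106 and 339 in the GFPHox libraries, 1985 and 19796 in the WTHox libraries, 1794 and 14464 in BMD MLCs and 152 and 2511 in microglia. For the other lists, ER-Hoxb8 MLCs had 0.74 to 126 CPM of B cell markers, 34.9 to 184 of dendritic cell markers, 2.54 to 1002 of border macrophage markers, 44.4 to 90.6 of endothelial markers, 18.8 to 36.2 of astrocyte markers, 47.0 to 157 of oligodendrocyte markers, 0.18 to 8.46 of neuron markers and 4.45 to 44.4 of progenitor markers. Of the dendritic cell markers, Siglech, which is also in the microglia list, was the most abundant in replicates 1 to 5, and the sum was 1487 to 2333 in microglia. The part of these cells in the levels of the Gbp genes was not tested.

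**Figure D1:**
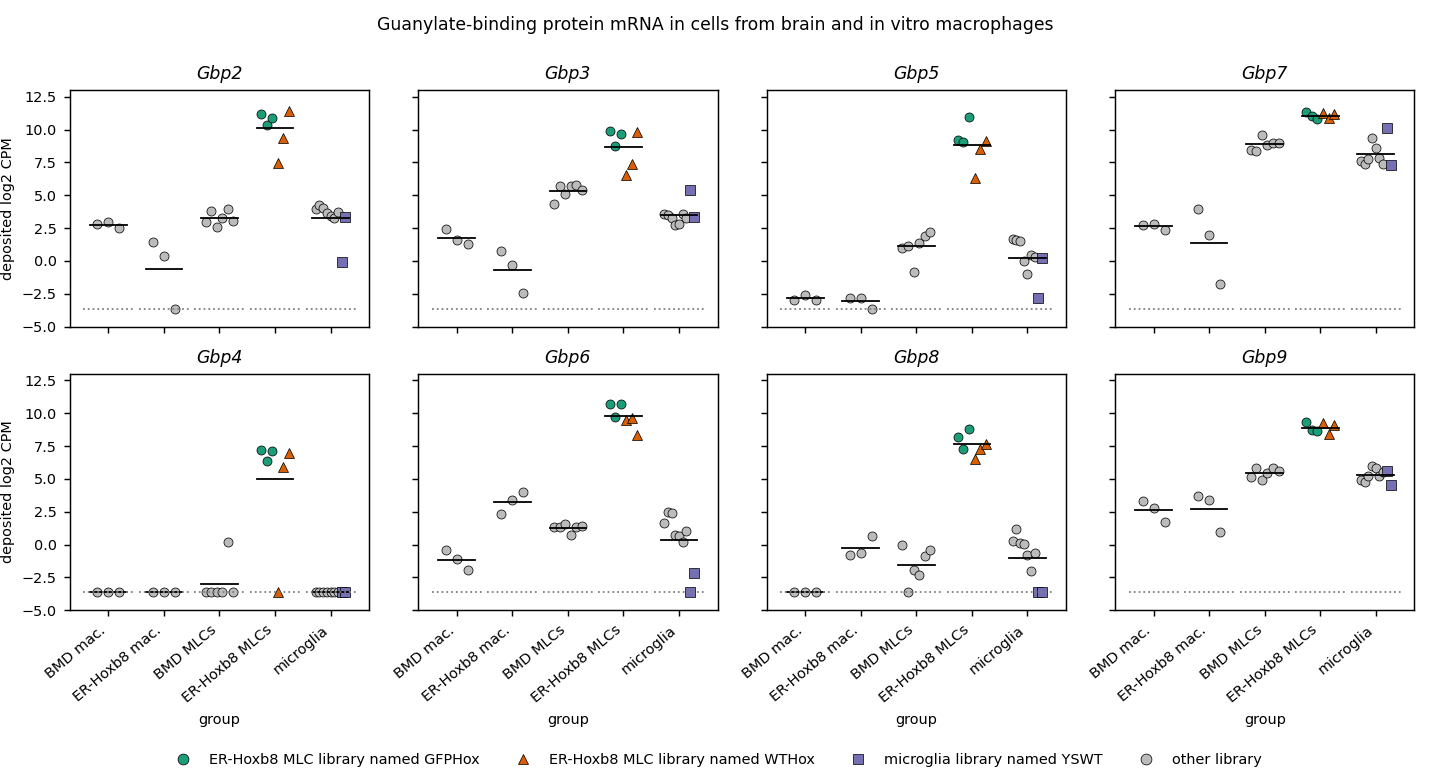
Levels (log2 CPM as deposited) of the 8 members in the 27 libraries of macrophages, MLCs and microglia, with a point for each library, a short bar for the mean of a group and a dotted line at the lowest value of -3.62. ER-Hoxb8 MLCs lie above every other group for each member except Gbp4, where replicate 4 is at the lowest value.

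Among cells from brain and macrophages in vitro, Gbp2, which coats vacuoles and takes part in Aim2 inflammasome activation, had levels of 2.79, 2.96 and 2.54 in BMD macrophages and 1.46, 0.41 and -3.62 in ER-Hoxb8 macrophages. In the cells from brain, Gbp2 ran from 2.56 to 3.93 (median 3.15) in BMD MLCs, from -0.05 to 4.27 (median 3.65) in microglia and from 7.44 to 11.38 (median 10.62) in ER-Hoxb8 MLCs. ER-Hoxb8 MLCs were high in all 6 libraries and did not overlap with any other group, and the low end of microglia was replicate 8. Gbp5, known for promoting the Nlrp3 inflammasome, was at -2.96, -2.58 and -2.99 in BMD macrophages, at the floor in all but replicate 2, and at the floor in all 3 ER-Hoxb8 macrophage libraries. Gbp5 ran from -0.86 to 2.23 (median 1.24) in BMD MLCs, from -2.82 to 1.70 (median 0.27) in microglia and from 6.28 to 10.97 (median 9.11) in ER-Hoxb8 MLCs. Again no library of another group reached the lowest of the ER-Hoxb8 MLCs, while BMD MLCs and microglia overlapped. Gbp7, linked to the assembly of the phagocyte oxidase, was at 2.76, 2.84 and 2.36 in BMD macrophages and 3.92, 1.98 and -1.74 in ER-Hoxb8 macrophages. Gbp7 ran from 8.38 to 9.62 (median 8.91) in BMD MLCs, from 7.28 to 10.11 (median 7.77) in microglia and from 10.82 to 11.32 (median 11.08) in ER-Hoxb8 MLCs. It was high in all 3 groups from brain and low in both kinds of macrophages in vitro. Gbp3, the fourth of the chromosome 3 cluster, was at 2.42, 1.60 and 1.29 in BMD macrophages and 0.77, -0.34 and -2.44 in ER-Hoxb8 macrophages. Gbp3 ran from 4.34 to 5.76 (median 5.53) in BMD MLCs, from 2.77 to 5.40 (median 3.33) in microglia and from 6.53 to 9.89 (median 9.21) in ER-Hoxb8 MLCs. The upper end of microglia was again replicate 8, the only microglia library of Gbp3 inside the range of BMD MLCs.

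Of the chromosome 5 cluster, Gbp4 was at the floor in both kinds of macrophages and in microglia. Gbp4 was above the floor in 1 of 6 BMD MLC libraries, replicate 5, at 0.23, and ran from -3.62 to 7.19 (median 6.67) in ER-Hoxb8 MLCs. It was thus high in 5 of 6 ER-Hoxb8 MLC libraries and at the lowest value in the sixth, replicate 4. Gbp6 was at -0.43, -1.13 and -1.93 in BMD macrophages and 2.35, 3.41 and 3.97 in ER-Hoxb8 macrophages. Gbp6 ran from 0.74 to 1.60 (median 1.36) in BMD MLCs, from -3.62 to 2.45 (median 0.71) in microglia and from 8.34 to 10.71 (median 9.67) in ER-Hoxb8 MLCs. All ER-Hoxb8 MLC libraries were again above all others, and ER-Hoxb8 macrophages were above BMD macrophages. Gbp8 was at the lowest value in all 3 BMD macrophage libraries, ran from -0.77 to 0.67 in ER-Hoxb8 macrophages, from -3.62 to 0.00 in BMD MLCs and from -3.62 to 1.21 in microglia, and reached 6.52 to 8.82 (median 7.47) in ER-Hoxb8 MLCs. Gbp9 ran from 1.72 to 3.33 in BMD macrophages, from 0.99 to 3.66 in ER-Hoxb8 macrophages, from 4.90 to 5.84 (median 5.50) in BMD MLCs, from 4.53 to 5.95 (median 5.20) in microglia and from 8.44 to 9.29 (median 8.90) in ER-Hoxb8 MLCs. Gbp11 ran from 3.15 to 5.12 in ER-Hoxb8 MLCs, from -0.59 to 0.79 in BMD MLCs and from -1.56 to 0.18 in microglia.

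The members were chosen by the rise in ER-Hoxb8 MLCs, and nothing is read from the counts that follow. Over ER-Hoxb8 macrophages, 7 of the 8 members had every ER-Hoxb8 MLC library above every other, against 14.4% of 12518 genes, with a median difference of 8.97 for the members and -0.15 for all genes. With Gbp4 and Gbp5 at their bounds the median of the members was 9.52. Over BMD MLCs the count was 7 of 8 against 4.15% of genes, and the medians were 7.28 and -0.22. Over microglia it was 7 of 8 against 5.40% of genes, with medians of 7.70 and -0.10, and of 7.71 for the members with Gbp4 at its bound. The exception in all 3 comparisons was Gbp4, through replicate 4. As folds of mean CPM over microglia, Gbp2 was 125-fold, Gbp3 42.2-fold, Gbp5 451-fold, Gbp6 449.5-fold, Gbp7 5.95-fold, Gbp8 307-fold and Gbp9 12.2-fold higher, and Gbp4 at least 687-fold. Gbp7, Gbp9 and Gbp3 had the smallest differences over BMD MLCs, 2.20, 3.45 and 3.35. Without ER-Hoxb8 MLC replicates 3 and 6, which had the most T and NK cell marker CPM, the medians were 8.19, 6.62 and 6.92 over the 3 groups. That alternative was chosen after seeing the data. With the GFPHox libraries alone they were 9.88, 8.08 and 8.30, and with the WTHox libraries alone 8.00, 6.09 and 6.40.

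The difference between the GFPHox and WTHox libraries was not used in the choice of genes and was tested. Genes were tested when above 1 CPM in at least 6 libraries of the brain set, or in 3 of another set, and a member may pass through the group where it is high. In the brain set, Gbp4 and Gbp8 passed only through the ER-Hoxb8 MLC libraries, by which the members were chosen. Limma with Benjamini-Hochberg adjustment called 0 of 8 members, against 3.88% of 12518 genes in either direction, and 1 member, Gbp4, had an unadjusted p under 0.05. Called here and below means an adjusted p below 0.05 and a log2 difference of at least 2. The median difference was 1.33 for the members and 0.14 for all genes. Without ER-Hoxb8 MLC replicate 6, 2 members, Gbp3 and Gbp4, were called higher in GFPHox libraries, against 4.47% of genes.

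Levels in BMD MLCs and microglia were compared with BMD macrophages, to ask whether the genes also differ in brain cells of other origin. In BMD MLCs, 5 of 8 members were called higher than in BMD macrophages by limma with Benjamini-Hochberg adjustment, against 9.67% of genes, and the median difference was 2.65 for the members and -0.01 for all genes. The largest was Gbp7, 6.22 (SE 0.72, adjusted p 5.47e-07), higher in 6 of 6 BMD MLC libraries than in any macrophage library. Gbp5 was higher by 3.96 (SE 0.87, adjusted p 0.00123), Gbp3 by 3.56 (SE 0.68, adjusted p 0.000333) and Gbp9 by 2.83 (SE 0.44, adjusted p 3.26e-05), each in 6 of 6 libraries, and Gbp5 was below the limit under log2(CPM + 1) (1.62, adjusted p 0.042, and 0.00056 to 0.042 over all alternatives). Gbp6 was higher by 2.46 (SE 0.91, adjusted p 0.0422) in 6 of 6, and lost its call when any library but BMD MLC replicate 4 was left out, with adjusted p between 0.0563 and 0.174. It also lost it when filter and fit left out the ER-Hoxb8 MLC libraries (adjusted p 0.0555), which gave 4 of 6 members against 10.0% of genes. Over all its alternatives the adjusted p of Gbp6 ran from 0.00166 to 0.174. Gbp2 differed by 0.50 and was not called. Without BMD MLC replicate 2, Gbp8 was called in place of Gbp6. Gbp8 had passed the filter only through the ER-Hoxb8 MLC libraries, by which the members were chosen. Neutrophil markers summed to 2.59 to 27.9 CPM in BMD macrophages, far below BMD MLCs, and the part of such cells in these differences was not tested.

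In microglia, 4 of 8 members were called higher than in the same BMD macrophages, against 11.2% of genes, and the medians were 2.17 for the members, 2.62 with Gbp8 at its bound and -0.06 for all genes. Gbp7 was higher by 5.49 (SE 0.67, adjusted p 4.26e-07) and Gbp9 by 2.65 (SE 0.41, adjusted p 1.45e-05), each in 9 of 9 microglia libraries. Gbp5 was higher by 3.06 (SE 0.82, adjusted p 0.00418), in 8 of 9 libraries, with replicate 8 inside the range of macrophages, and was not called under log2(CPM + 1) (1.12, adjusted p 0.118, and 0.000383 to 0.118 over all alternatives). Gbp8, at 0 reads in BMD macrophages, was called too (adjusted p 0.0168) and was at least 6.14-fold higher in mean CPM, with 2 of 9 microglia libraries at the lowest value. It passed the filter only through the ER-Hoxb8 MLC libraries, by which the members were chosen, and with these left out of filter and fit Gbp4 and Gbp8 were not tested and 3 of 6 members were called, against 11.7% of genes. Gbp8 lost its call without BMD macrophage replicate 1 or 3 (adjusted p 0.0539 and 0.0574, and 0.000409 to 0.154 over all alternatives), Gbp3 was called without BMD macrophage replicate 1 (2.06), and without microglia replicate 8 Gbp6 was called too, which gave 5. Between BMD MLCs and microglia, limma called 0 of 8 members, against 10.7% of genes in either direction, with 1 member at an unadjusted p under 0.05. The median difference was 0.68, 0.58 with Gbp4 at its bound, and 0.06 for all genes. That member was Gbp3, higher in BMD MLCs by 1.83 (SE 0.51, adjusted p 0.00963) and above the limit of 2 without BMD MLC replicate 1 (2.03) or microglia replicate 8 (2.07). Between the macrophages in vitro, 1 of 8 members was called higher in ER-Hoxb8 than in BMD macrophages, against 0.272% of genes, and the median differences were -0.11 for the members, 0.05 with Gbp5 and Gbp8 at their bounds, and 0.00 for all genes. It was Gbp6, by 4.41 (SE 1.06, adjusted p 0.0204) in 3 of 3 libraries, and it was not called without BMD macrophage replicate 2 or 3 or ER-Hoxb8 macrophage replicate 2 or 3 (adjusted p 0.0603 to 0.119, and 0.00546 to 0.294 over all alternatives). Without ER-Hoxb8 macrophage replicate 1, Gbp2 was called as well, lower in ER-Hoxb8 cells.

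Other genes of the interferon pathway came from a list of 35 with a row. In BMD MLCs over BMD macrophages, 9 of the 33 tested were called higher by limma, against 9.67% of all genes, and 0 lower, with 2 lower at an unadjusted p under 0.05. These were the receptor chains Ifnar2 (2.05) and Ifngr2 (2.17), the immunity-related GTPases Iigp1 (6.53), Tgtp1 (3.97), Tgtp2 (3.76) and Gm12250 (3.47), the antiviral Mx1 (2.79) and the interferon-gamma targets Cxcl9 (4.22) and Ciita (3.46). In microglia over BMD macrophages 6 were called higher, against 11.2%, and 1, Stat2 (-2.15), lower, against 12.2%. Between BMD MLCs and microglia 5 were called higher in BMD MLCs, against 6.61%, and 0 lower, with 0 lower at an unadjusted p under 0.05. Between the 2 kinds of macrophages in vitro limma called 0, with 3 at an unadjusted p under 0.05, and between GFPHox and WTHox libraries 0, with 5.

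In ER-Hoxb8 MLCs these genes were described without a test. Cxcl9, a chemokine induced by interferon-gamma, was at 10.65, 10.05, 11.72, 7.50, 10.31 and 9.65 in replicates 1 to 6, and ran from -0.60 to 1.88 in BMD MLCs. Ciita, which switches on MHC class II genes, was at 6.55, 7.37, 7.47, 3.56, 6.06 and 8.01, against 2.03 to 3.44 in BMD MLCs. Both genes were higher in every ER-Hoxb8 MLC library than in any BMD MLC or microglia library. The same held for the type I interferon targets Ifit1 (6.34 to 8.87 in ER-Hoxb8 MLCs, at most 4.32 in BMD MLCs), Isg15 (6.87 to 9.36, at most 3.69), Rsad2 (4.59 to 7.83, at most 3.03) and Mx1 (5.25 to 6.85, at most 3.83), and for Usp18 (6.69 to 8.60, at most 4.97). Of 12518 genes, 4.15% had every ER-Hoxb8 MLC library above every BMD MLC library, and 5.40% above every microglia library. For the other genes of the list this is not given. Ifng itself was at 1.39, -1.03, 6.73, -1.86, -3.62 and 6.29 in ER-Hoxb8 MLCs and at most -1.64 in microglia. Its 2 highest libraries, replicates 3 and 6, are those with the most T and NK cell marker CPM, and the part of these cells in the result was not tested. The methods list stains for CD45 and CD11b. For the brain libraries the paper cites a gating figure that was drawn for a flow cytometry histogram of TMEM119. Its legend names live, singlet, leukocyte and GFP as pre-gates, and the histogram itself was also gated on CD45 and CD11b. Ifnb1 was above the floor in replicates 1 and 3 alone, at -0.11 and 0.36. Replicate 5 had Ifng and Ifnb1 at the lowest value and Gbp2 at 9.32, Gbp5 at 8.49 and Gbp7 at 10.85. This library had the lowest macrophage marker sum (1568 CPM) and the highest neutrophil marker sum (19796 CPM) of the brain set. Whether interferon from other cells reached these cells was not tested.

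Adar edits adenosine to inosine in double-stranded RNA, and without it such RNA of the cell itself can set off the making of type I interferon. Adar mRNA was at 4.20, 3.42 and 4.28 in NTC progenitors, 4.36, 4.23 and 4.24 in sgRNA 1 progenitors, 5.73 and 5.67 in NTC macrophages and 6.96, 7.15 and 7.01 in sgRNA 1 macrophages. With sgRNA 2, Adar was at 4.35, 4.56 and 4.36 in progenitors and 7.02, 7.00, 7.02, 7.03 and 6.99 in macrophages. Adar mRNA was thus no lower in sgRNA 1 cells than in NTC cells, and in macrophages it was higher by 1.34 (limma, SE 0.21, Benjamini-Hochberg adjusted p 0.000976), in 3 of 3 libraries, below the limit of 2 used below. These mRNA levels give no measure of the protein or of the indels. Macrophage markers summed to between 4938 and 5529 CPM in sgRNA 1 macrophages and between 7829 and 8799 in the 2 NTC macrophage libraries, and progenitor markers to between 105 and 127 CPM in NTC and sgRNA 1 progenitors, led by Myb.

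**Figure D2:**
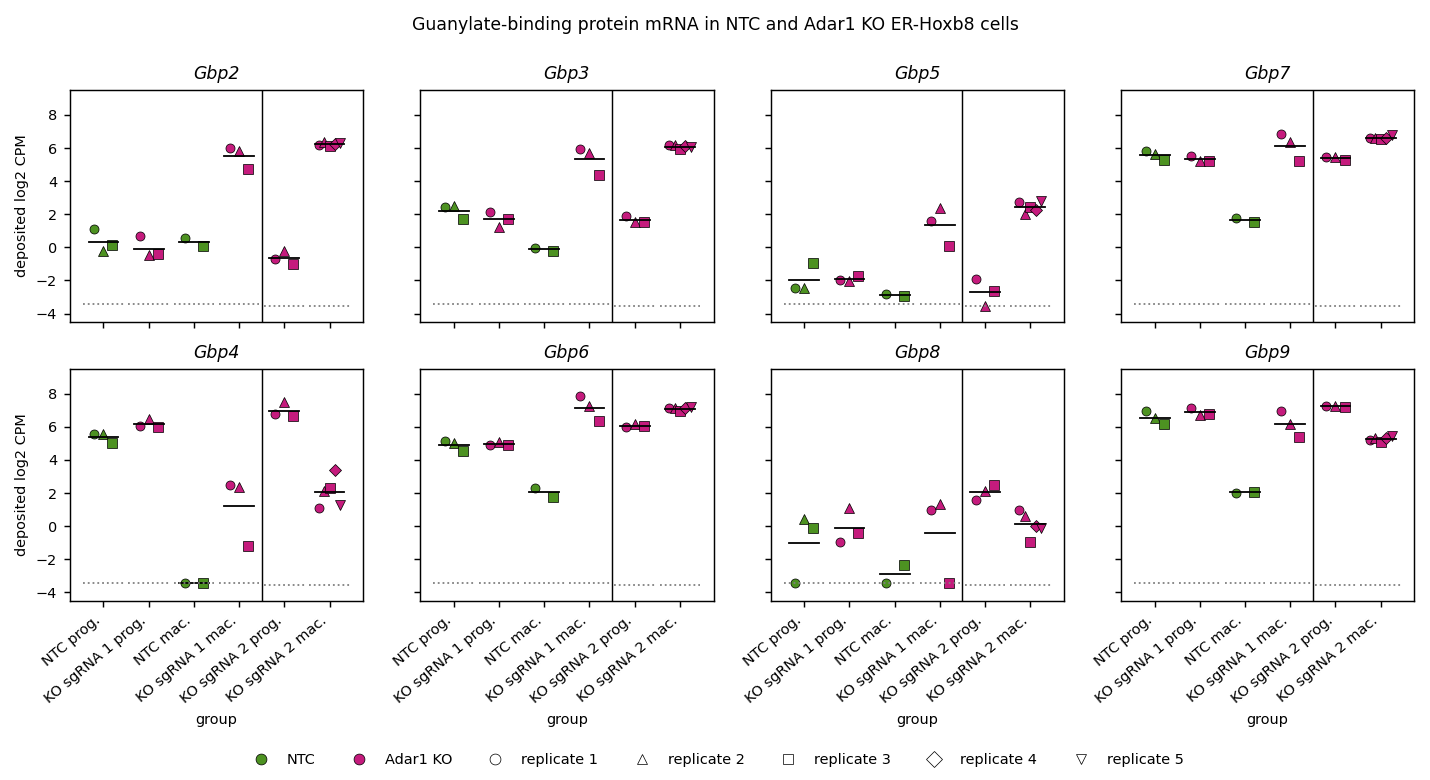
Levels (log2 CPM as deposited) of the 8 members in NTC, sgRNA 1 and sgRNA 2 progenitors and macrophages, with a point for each library, a short bar for the mean and dotted lines at the lowest value of each set. The vertical line separates the sgRNA 2 libraries, which are not compared with the others, and in macrophages sgRNA 1 lies above NTC for each member except Gbp8, where the groups overlap.

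Gbp2 was at 0.57 and 0.10 in NTC macrophages and 6.00, 5.84 and 4.72 in sgRNA 1 macrophages. In progenitors Gbp2 was at 1.09, -0.22 and 0.13 for NTC and 0.66, -0.48 and -0.42 for sgRNA 1. The KO macrophages stood apart and the other 3 groups shared 1 range. Gbp5 was at -2.84 and -2.91, both at the floor, in NTC macrophages and at 1.59, 2.39 and 0.08 in sgRNA 1 macrophages. Gbp5 was at -2.43, -2.48 and -0.95 in NTC progenitors and -1.99, -2.01 and -1.74 in sgRNA 1 progenitors, which overlap. It was below the filter on low values and was not tested. Gbp7 was at 1.77 and 1.54 in NTC macrophages and 6.87, 6.37 and 5.19 in sgRNA 1 macrophages. In progenitors Gbp7 was at 5.80, 5.63 and 5.25 for NTC and 5.54, 5.22 and 5.22 for sgRNA 1. Only the NTC macrophages were low for Gbp7, and KO macrophages overlapped with progenitors. Gbp6 was at 2.33 and 1.78 in NTC macrophages and 7.84, 7.26 and 6.36 in sgRNA 1 macrophages, and ran from 4.53 to 5.12 in the 6 progenitor libraries. Gbp4 was at the floor in both NTC macrophage libraries, at 2.46, 2.34 and -1.19 in sgRNA 1 macrophages, and ran from 5.02 to 6.47 in progenitors. For Gbp4 the order was thus progenitors, KO macrophages and NTC macrophages, with no overlap between these. Gbp3 ran from 4.39 to 5.92 in sgRNA 1 macrophages, was at -0.01 and -0.21 in NTC macrophages and ran from 1.24 to 2.50 in progenitors. Gbp9 ran from 5.41 to 6.94 in sgRNA 1 macrophages, was at 2.02 and 2.07 in NTC macrophages and ran from 6.15 to 7.16 in progenitors. Gbp8 was at 0.95, 1.31 and -3.43 in sgRNA 1 macrophages, at the floor in NTC macrophages and from -3.43 to 1.08 in progenitors. Gbp11 was at -1.95 and -0.93 in NTC macrophages and 2.90, 2.31 and 1.63 in sgRNA 1 macrophages.

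Of the 8 members, 7 passed the filter, and of these 6 were called higher in sgRNA 1 than in NTC macrophages by limma with Benjamini-Hochberg adjustment over 11008 genes, against 3.24% of genes. The median difference was 4.62 for the members, 4.83 with Gbp4 and Gbp8 at their bounds, and 0.05 for all genes. Gbp2 rose by 5.18 (SE 0.50, adjusted p 2.19e-05), Gbp3 by 5.46 (SE 0.43, adjusted p 5.34e-06) and Gbp7 by 4.48 (SE 0.38, adjusted p 7.6e-06), each higher in 3 of 3 KO libraries. On chromosome 5, Gbp6 rose by 5.10 (SE 0.35, adjusted p 1.88e-06) and Gbp9 by 4.13 (SE 0.36, adjusted p 9.58e-06), again in 3 of 3, with 8.5e-07 to 0.0512 for Gbp9 over all alternatives. Gbp4 was called (adjusted p 0.00223), higher in 3 of 3, and was at least 28.5-fold higher in mean CPM. Its call was lost with only the compared groups (adjusted p 0.0616) and under log2(CPM + 1) (1.89, adjusted p 0.0231), with 2.94e-07 to 0.136 over all alternatives. Gbp8 differed by 2.50 (SE 1.41, adjusted p 0.233), higher in 2 of 3 KO libraries, and was called when sgRNA 1 macrophage replicate 3 was left out, which gave 7 members. In progenitors limma called 0 of 7 members, against 0.254% of genes in either direction, with 0 at an unadjusted p under 0.05, and the medians were 0.07 and -0.01.

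The difference between these KO effects was tested as an interaction. It was called for 6 of 7 members, all with a larger rise in macrophages, against 3.52% of genes, and the medians were 4.72 for the members and 0.08 for all genes. The interaction was 5.60 for Gbp2 (SE 0.67, adjusted p 0.000203), 5.96 for Gbp3 (SE 0.58, adjusted p 5.44e-05), 5.03 for Gbp6 (SE 0.47, adjusted p 4.04e-05), 4.72 for Gbp7 (SE 0.50, adjusted p 9.62e-05) and 3.80 for Gbp9 (SE 0.48, adjusted p 0.000301), by limma with Benjamini-Hochberg adjustment and with 3 of 3 KO macrophage libraries above both NTC libraries. For Gbp4 it was 3.83 (SE 1.11, adjusted p 0.0424). Without any 1 progenitor library, or sgRNA 1 macrophage replicate 1 or 2, the adjusted p was between 0.0565 and 0.091, which left 5 members. Without NTC macrophage replicate 1 or 3, which leaves 1 NTC macrophage library, the interaction was 3.84 and 3.82. The call was also lost with no filter (adjusted p 0.106), quantile normalization (adjusted p 0.0554) and the replicate block (3.31, adjusted p 0.163). Under log2(CPM + 1) the interaction was 1.12 (adjusted p 0.319). Over all alternatives the adjusted p of Gbp4 ran from 1.08e-05 to 0.319.

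Most members tested were lower in NTC cells after differentiation. From NTC progenitors to NTC macrophages, which share the macrophage libraries above, 5 of 7 members were called lower, against 12.6% of genes, with medians of -2.84 and -0.08. Gbp9 fell by 4.50 (limma, SE 0.36, adjusted p 4.62e-07), Gbp7 by 3.90 (SE 0.38, adjusted p 2.36e-06), Gbp6 by 2.84 (SE 0.35, adjusted p 1.84e-05) and Gbp3 by 2.31 (SE 0.43, adjusted p 0.000506), each lower in both macrophage libraries than in any of 3 progenitor libraries. Gbp4 was called too (adjusted p 1.97e-06) and was at least 336-fold lower. Gbp2 differed by 0.00 and was not called. In sgRNA 1 cells, 3 of 7 were called higher in macrophages than in progenitors, against 11.6% of genes, and 1 was called lower, against 10.0%, with medians of 0.82 and -0.06. The higher ones were Gbp2 (5.60, SE 0.45, adjusted p 4.27e-07), Gbp3 (3.65, SE 0.39, adjusted p 4.97e-06) and Gbp6 (2.19, SE 0.31, adjusted p 5.9e-05), each in 3 of 3 libraries, and the lower one was Gbp4 (-4.97, SE 0.74, adjusted p 8.51e-05), also in 3 of 3. Gbp6 was below the limit of 2 without sgRNA 1 macrophage replicate 1 (1.84).

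The second guide has no NTC library in its set and was compared only between its own stages. Gbp2 was at -0.73, -0.25 and -1.02 in sgRNA 2 progenitors and 6.17, 6.34, 6.15, 6.27 and 6.32 in sgRNA 2 macrophages. Gbp5 was at -1.92, -3.56 and -2.65 in progenitors, the last 2 at the floor, and at 2.77, 2.02, 2.45, 2.23 and 2.78 in macrophages. Gbp4 was at 6.78, 7.47 and 6.68 in progenitors and 1.08, 2.11, 2.33, 3.39 and 1.25 in macrophages. Gbp2 and Gbp5 were thus higher in macrophages and Gbp4 was lower. Gbp2 and Gbp5 were below 1 CPM in every sgRNA 2 progenitor library, so they passed the filter through the macrophages alone. Limma called 3 of 8 members higher in macrophages, against 11.7% of 10698 genes, and 1 lower, against 7.61%, with medians of 1.13 and -0.03. The higher ones, each in 5 of 5 macrophage libraries, were Gbp2 (6.92, SE 0.16, adjusted p 4.95e-11), Gbp3 (4.43, SE 0.10, adjusted p 6.35e-11) and Gbp5 (5.16, SE 0.36, adjusted p 2.82e-07), and the lower one, also in 5 of 5, was Gbp4 (-4.95, SE 0.47, adjusted p 3.16e-06). The other 4 had adjusted p between 2.37e-09 and 0.00138 and differences under the limit, 1.03 for Gbp6, 1.24 for Gbp7 and -1.96 for both Gbp8 and Gbp9. Gbp8 passed the limit without sgRNA 2 progenitor replicate 1 (-2.20) or macrophage replicate 1 (-2.18) or 2 (-2.09), and Gbp9, just, without macrophage replicate 5, each of which gave 5 members.

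From the pathway list, 13 of 29 genes tested were called higher by limma in sgRNA 1 than in NTC macrophages, against 3.24% of all genes, and 0 lower, with 2 lower at an unadjusted p under 0.05. They included 0 of 4 interferons and receptors, 1 of 8 kinases and factors, Stat2 (2.51), the brake Usp18 (5.39), 7 of 12 partners, with Tgtp2 (5.31), Iigp1 (4.89) and Irgm1 (3.44) among them, and all 4 type I interferon targets, Ifit1 (6.05), Isg15 (4.69), Rsad2 (7.04) and Mx1 (4.70). In progenitors limma called 0 of 29, with 4 at an unadjusted p under 0.05. The same 13 were called in the interaction, against 3.52%. In macrophages over progenitors, 19 of 29 were called higher with sgRNA 2, against 11.7%, and 18 of 29 with sgRNA 1, against 11.6%. In NTC cells the same stages gave 9 of 29 higher, among them Usp18 and 3 of 4 type I interferon targets, and 1 lower. Of all 11008 genes tested, 1206 were called higher and 1383 lower between these stages in NTC cells. A rise with stage was thus also present without the knockout. Its part in the sgRNA 2 count was not tested, since that set has no NTC library. Ifnb1 was at 2.08, 1.55 and 0.09 in sgRNA 1 macrophages, from 0.03 to 0.62 in sgRNA 2 macrophages, and at the floor in NTC macrophages and in all progenitors. Ifng was at the floor in every library of these sets. Cxcl9 was at the floor in all KO macrophages of both guides, and Ciita ran from -2.86 to -1.54 in sgRNA 1 macrophages against -1.71 and -1.99 in NTC, so these interferon-gamma targets were at or near the floor in KO macrophages. Each within its own set, ER-Hoxb8 MLCs were above the groups they were compared with, and sgRNA 1 macrophages above NTC macrophages, in Gbp2, Gbp3, Gbp6, Gbp7 and Gbp9 and in Ifit1, Isg15, Rsad2 and Mx1, while in Cxcl9 and Ciita the MLCs were and the KO macrophages were not.

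**Figure D3:**
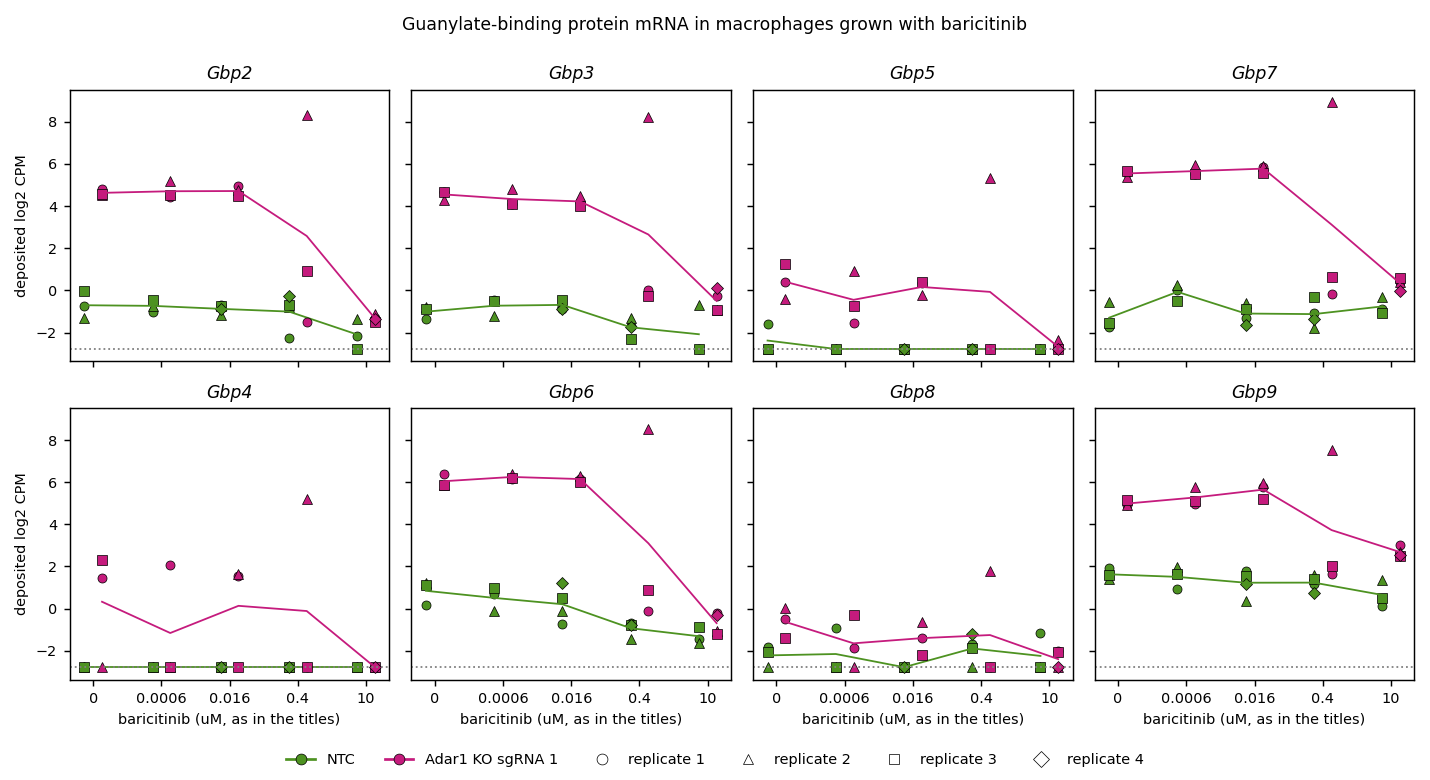
Levels (log2 CPM as deposited) of the 8 members by baricitinib dose (uM) in NTC and sgRNA 1 macrophages, with a point for each library, a line through the means of each genotype and a dotted line at the lowest value of -2.78. At 0 to 0.016 uM the KO libraries of Gbp2, Gbp3, Gbp6, Gbp7 and Gbp9 lie above NTC, at 0.4 uM replicate 2 of the KO stands far above replicates 1 and 3, and at 10 uM the levels are low.

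In the baricitinib libraries, Adar was at 5.12, 4.94 and 4.69 in NTC and 7.42, 6.52 and 6.37 in KO macrophages without drug, and at 3.70, 3.64 and 3.22 in NTC and 1.55, 2.15, 2.91 and 2.03 in KO at 10 uM. KO was thus above NTC without drug and below it at 10 uM, with no overlap at either. The KO library of replicate 2 at 0.4 uM stands apart from replicates 1 and 3. Its Ifnb1 was at 6.02, against the floor in those, its Adar was at 7.38, against 4.12 and 4.21, and its depth of 9.5 M counts is the lowest of the group. Counts of members and pathway genes called at 0.4 uM are given with and without it.

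Gbp2 was at -0.74, -1.32 and -0.05 in NTC and 4.80, 4.52 and 4.57 in KO macrophages without drug. In KO cells Gbp2 was at 4.41, 5.17 and 4.54 at 0.0006 uM, 4.94, 4.75 and 4.46 at 0.016 uM, -1.51, 8.34 and 0.92 at 0.4 uM and -1.32, -1.13, -1.49 and -1.37 at 10 uM. NTC cells were at -2.15, -1.35 and -2.78 at 10 uM. KO libraries of Gbp2 were high up to 0.016 uM and overlapped with NTC at 10 uM. Gbp7 was at -1.76, -0.57 and -1.55 in NTC and 5.58, 5.40 and 5.67 in KO without drug. In KO cells it was at -0.19, 8.92 and 0.63 at 0.4 uM and at 0.40, 0.41, 0.59 and -0.03 at 10 uM, where NTC was at -0.89, -0.30 and -1.09. Gbp7 remained above NTC in each KO library at 10 uM, by little. Gbp6 was at 0.19, 1.24 and 1.11 in NTC and 6.38, 5.88 and 5.88 in KO without drug. In KO cells it was at -0.10, 8.53 and 0.88 at 0.4 uM and -0.21, -1.04, -1.20 and -0.30 at 10 uM, where NTC was at -1.42, -1.65 and -0.86. The KO and NTC libraries of Gbp6 overlapped at 10 uM. Gbp9 was at 1.92, 1.39 and 1.58 in NTC and 4.91, 4.90 and 5.15 in KO without drug. At 10 uM Gbp9 was at 0.11, 1.35 and 0.49 in NTC and 3.00, 2.70, 2.50 and 2.55 in KO, with no overlap. Gbp3 followed Gbp2, from 4.29 to 4.69 in KO without drug to between -0.93 and 0.11 at 10 uM. Gbp5 was at 0.40, -0.40 and 1.23 in KO without drug and at the floor in all NTC and all 10 uM libraries. Gbp4 was at 1.46, -2.78 and 2.30 in KO without drug and at the floor in all NTC and all 10 uM libraries. Gbp8 was from -1.38 to 0.01 in KO without drug and was not tested, being below the filter.

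Without drug, limma with Benjamini-Hochberg adjustment over 11152 genes called 5 of 7 members higher in KO than in NTC, against 1.92% of genes, with medians of 5.20 and -0.02. Gbp7 rose by 6.84 (SE 1.16, adjusted p 7.02e-05), Gbp3 by 5.57 (SE 1.14, adjusted p 0.000631), Gbp2 by 5.33 (SE 1.20, adjusted p 0.00155), Gbp6 by 5.20 (SE 1.11, adjusted p 0.000949) and Gbp9 by 3.36 (SE 0.80, adjusted p 0.00255), each in 3 of 3 KO libraries. Gbp4 was called as well when KO replicate 2, at the lowest value for Gbp4, was left out. At 0.0006 uM 5 of 7 were called, against 2.03% of genes, with medians of 5.07 and 0.00. At 0.016 uM 6 of 7 were called, against 2.34%, with medians of 4.91 and 0.00. The sixth was Gbp5 (adjusted p 0.0361, at least 3.39-fold higher), above NTC in 3 of 3 KO libraries, and its adjusted p was between 0.0588 and 0.0931 when any of the 7 libraries of that comparison was left out, and between 0.000622 and 0.28 over all alternatives. In this set Gbp2, Gbp3, Gbp4 and Gbp5 were above 1 CPM in KO libraries alone, through which they passed the filter. With no filter Gbp5 lost this call (adjusted p 0.059). Without KO replicate 3, Gbp4 was called in its place.

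At 0.4 uM 5 of 7 members were called higher in KO, against 1.23% of genes, with medians of 3.59, 4.24 with Gbp3, Gbp4 and Gbp5 at their bounds, and 0.01 for all genes. Without KO replicate 2 the count was 0 of 7, against 0.986% of genes in either direction. Gbp2 then differed by 0.71, Gbp3 by 1.61, Gbp6 by 1.32, Gbp7 by 1.35 and Gbp9 by 0.60. Of these, Gbp3 (limma, adjusted p 0.0233) and Gbp7 (adjusted p 0.0269) were below 0.05 and fell short of the limit of 2. Over all alternatives the adjusted p of Gbp3 ran from 0.000489 to 0.433 and that of Gbp2 from 0.000224 to 0.472. The count was 3 without NTC replicate 1, which took out Gbp2 and Gbp9, 4 without NTC replicate 2 or 3, which took out Gbp2, 4 without NTC replicate 4, which took out Gbp9, and 6 without KO replicate 1 or 3, which brought in Gbp5. At 10 uM 1 of 7 was called, against 0.744%, with medians of 0.77, 1.10 with genes at the floor in both groups left out, and 0.00. It was Gbp9, higher by 2.04 (SE 0.75, adjusted p 0.0275) in 4 of 4 KO libraries, and its call was lost without NTC replicate 1 (1.76, adjusted p 0.105), NTC replicate 3 (1.96, adjusted p 0.0737) or KO replicate 1 (1.93, adjusted p 0.0584), with 0.00179 to 0.105 over all alternatives.

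Doses were also compared within each genotype, with the undrugged libraries shared between these comparisons and those above. In KO cells limma called 0 of 7 members at 0.0006 uM, against 0.0628% of genes in either direction, and 0 of 7 at 0.016 uM, against 0.152%, with 0 at an unadjusted p under 0.05 at both. The median differences were 0.08 and 0.09, against 0.02 and 0.06 for all genes. At 0.4 uM limma called 0 of 7, against 1.93% of genes, with 2 at an unadjusted p under 0.05 and medians of -1.90 and 0.03, and without KO 0.4 uM replicate 2 it called 6 of 7 lower, Gbp2, Gbp3, Gbp5, Gbp6, Gbp7 and Gbp9, against 2.14% of genes. Mean CPM at 0.4 uM ran the other way because of that library, 4.41-fold higher for Gbp2, 3.46-fold for Gbp7 and 1.85-fold for Gbp6.

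At 10 uM 6 of 7 members were called lower than without drug in KO cells, against 9.16% of genes, with medians of -5.05 and 0.05. Gbp6 fell by 6.74 (SE 1.04, adjusted p 2.39e-06), Gbp2 by 5.95 (SE 1.12, adjusted p 3.94e-05), Gbp7 by 5.20 (SE 1.09, adjusted p 0.000144), Gbp3 by 5.05 (SE 1.07, adjusted p 0.000165) and Gbp9 by 2.30 (SE 0.75, adjusted p 0.00837), each lower in 4 of 4 libraries at 10 uM than in any of 3 without drug. Gbp5, which like Gbp2 and Gbp3 passed the filter through KO libraries alone, was called too (adjusted p 0.0134). It lost its call without KO 0 uM replicate 3 (adjusted p 0.0602, and 0.000382 to 0.136 over all alternatives). Gbp4 was called without KO 0 uM replicate 2, which gave 7. In NTC cells limma called 0 of 7 members at each dose. The background was 0% of genes at 0.0006, 0% at 0.016, 0% at 0.4 and 0.834% at 10 uM in either direction, and 0 members were at an unadjusted p under 0.05 at any dose. At 10 uM the differences were -2.16 for Gbp6 (SE 1.11, adjusted p 0.203), -1.39 for Gbp2 and -0.98 for Gbp9, with 3 of 3 libraries below any without drug and none called. The medians of the members were -0.03, -0.17, -0.40 and -0.98 from the lowest to the highest dose, the last -1.07 without genes at the floor in both groups, against -0.01, -0.01, -0.01 and 0.00 for all genes.

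The interaction, the 10 uM effect in KO less that in NTC, was called for 4 of 7 members, all negative, against 4.52% of genes, with medians of -3.98 and 0.06. It was -5.74 for Gbp7 (SE 1.60, adjusted p 0.00561), -4.58 for Gbp6 (SE 1.52, adjusted p 0.0185), -4.56 for Gbp2 (SE 1.64, adjusted p 0.029) and -3.98 for Gbp3 (SE 1.57, adjusted p 0.0445), by limma with Benjamini-Hochberg adjustment, with KO lower in 4 of 4 libraries. Gbp3 lost its call when any of 10 of the 13 libraries was left out (adjusted p 0.054 to 0.125, and 0.000747 to 0.125 over all alternatives), the exceptions being NTC 10 uM replicates 1 and 3 and KO 10 uM replicate 4. Gbp2 lost it without NTC 0 uM replicate 2, NTC 10 uM replicate 2 or KO 0 uM replicate 1 (adjusted p 0.0548 to 0.0666, and 6.21e-05 to 0.0666 over all alternatives), and the count of members then was 2. With no filter, Gbp2 (adjusted p 0.0577) and Gbp3 (adjusted p 0.0855), which passed it through KO libraries alone, lost their calls too, and the count was 2. In NTC cells Gbp4 and Gbp5 were at the floor without drug, so a fall there was not detectable at this depth. The 4 called members were low there too, with means of -0.70 for Gbp2, -1.01 for Gbp3, 0.85 for Gbp6 and -1.29 for Gbp7. In KO cells without drug the means were 4.63, 4.56, 6.05 and 5.55. Levels cannot go below the lowest value of the set, so NTC cells had no room for a fall as large as in KO. Whether the drug acted less in NTC cells was therefore not tested by the interaction.

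Of 30 pathway genes tested, 12, 13, 14, 9 and 0 were called higher by limma in KO than in NTC at 0, 0.0006, 0.016, 0.4 and 10 uM, against 1.92, 2.03, 2.34, 1.23 and 0.744% of all genes, and 20, 20, 22, 21 and 3 were higher at an unadjusted p under 0.05. Called lower were 0 at any dose, with 2, 1, 1, 1 and 3 at an unadjusted p under 0.05. Without KO 0.4 uM replicate 2, 2 were called higher at 0.4 uM, with 7 at an unadjusted p under 0.05. The brake Usp18 differed by 4.90, Iigp1 by 3.96 and Rsad2 by 7.02 without drug. In KO cells, limma called 0 at 0.0006 and 0 at 0.016 uM against no drug, with 3 and 2 at an unadjusted p under 0.05, and 4 lower at 0.4 uM, against 0.906%, or 15 without that library, against 2.14%. At 10 uM in KO cells, 16 of 30 were called lower than without drug, against 9.16%, among them Ifnb1 (-2.75), Stat2 (-5.26), Irf9 (-3.17), Usp18 (-9.39), Tgtp2 (-6.49) and Rsad2 (-9.21). In NTC cells 2 were called lower at 10 uM, against 0.673%, Irf9 (-2.10) and Usp18 (-4.46), and in the interaction 10 were called, all lower, against 4.52%.

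**Figure D4:**
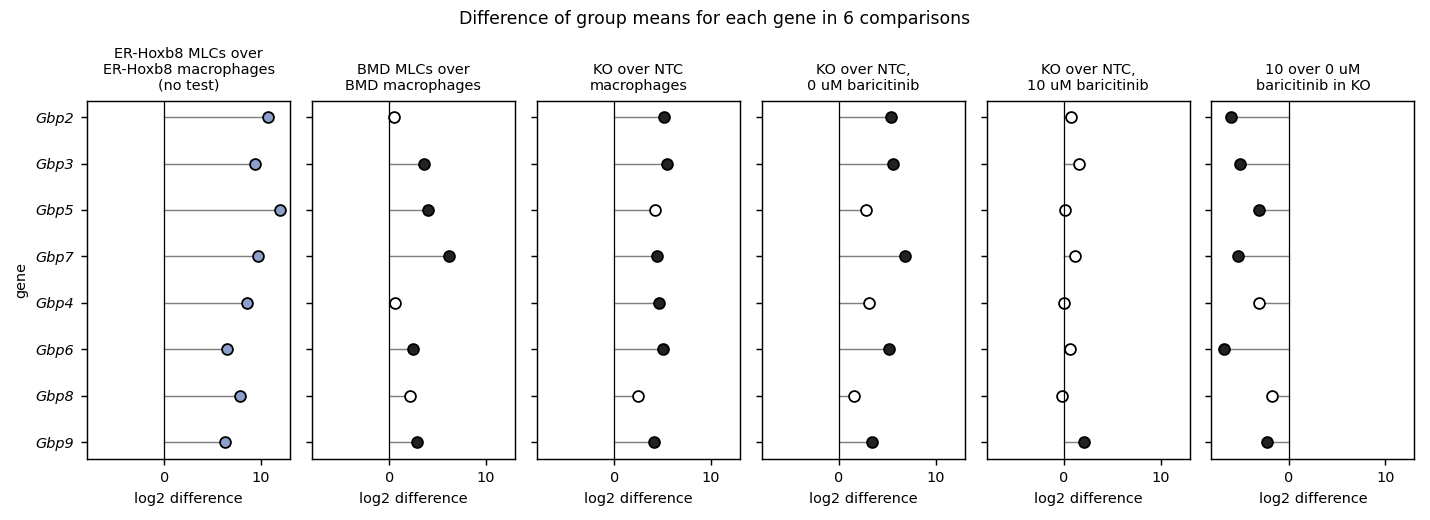
Differences (log2 CPM) of each member in the comparisons of the text, with filled black points where limma called the gene, open points where it was not called or not tested, and blue points for the ER-Hoxb8 MLC comparisons, which have no test. The KO over NTC points of Gbp2, Gbp3, Gbp6 and Gbp7 lie between 0.62 and 1.58 at 10 uM, and differences involving groups with no reads depend on the prior count.

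On average, the chromosome 5 members were higher in ER-Hoxb8 progenitors than in the other 3 groups of their set, with 1 library apart. Gbp6 was at 0.81, 2.37 and 2.39 in BM progenitors, 0.14, -1.10 and -0.50 in BM monocytes, 7.40, 3.21 and 8.02 in ER-Hoxb8 progenitors and 2.59, 2.93 and 2.12 in ER-Hoxb8 day 4 cells. Gbp4 was at -4.34, -0.46 and 0.21 in BM progenitors, at the lowest value in BM monocytes, at 6.52, 2.19 and 8.16 in ER-Hoxb8 progenitors and at -4.33, -4.34 and 1.62 at day 4. For Gbp9, BM progenitors were at 2.79, 3.69 and 3.74, ER-Hoxb8 progenitors at 7.36, 2.94 and 9.28 and day 4 cells at 2.81, 3.04 and 2.44. Replicates 1 and 3 of the ER-Hoxb8 progenitors were high for these genes and replicate 2 was near the day 4 cells. Replicate 2 also had Csf1r at 10.45, against 7.75 and 3.10 in replicates 1 and 3, Irf8 at 7.68, against 2.07 and 2.99, and Kit at -0.76, against 5.03 and 1.67, which are levels closer to day 4 cells for Csf1r and Irf8. Gbp8 was at 5.48, -2.55 and 5.58 and Gbp11 at 6.32, -0.84 and 7.10 in the same 3 libraries. Gbp2 was at 3.46, 3.51 and 3.37 in BM progenitors, 4.47, 4.22 and 4.26 in BM monocytes and 3.38, 1.95 and 1.29 in ER-Hoxb8 progenitors. For Gbp7, BM progenitors were at 6.91, 6.63 and 6.69 and ER-Hoxb8 progenitors at 5.63, 2.97 and 5.94, and Gbp5 was at the floor in all ER-Hoxb8 libraries of this set. On average, none of the 4 chromosome 3 members was higher in ER-Hoxb8 than in BM progenitors, and for Gbp2 the groups overlapped. The difference between the 2 clusters was not tested.

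**Figure D5:**
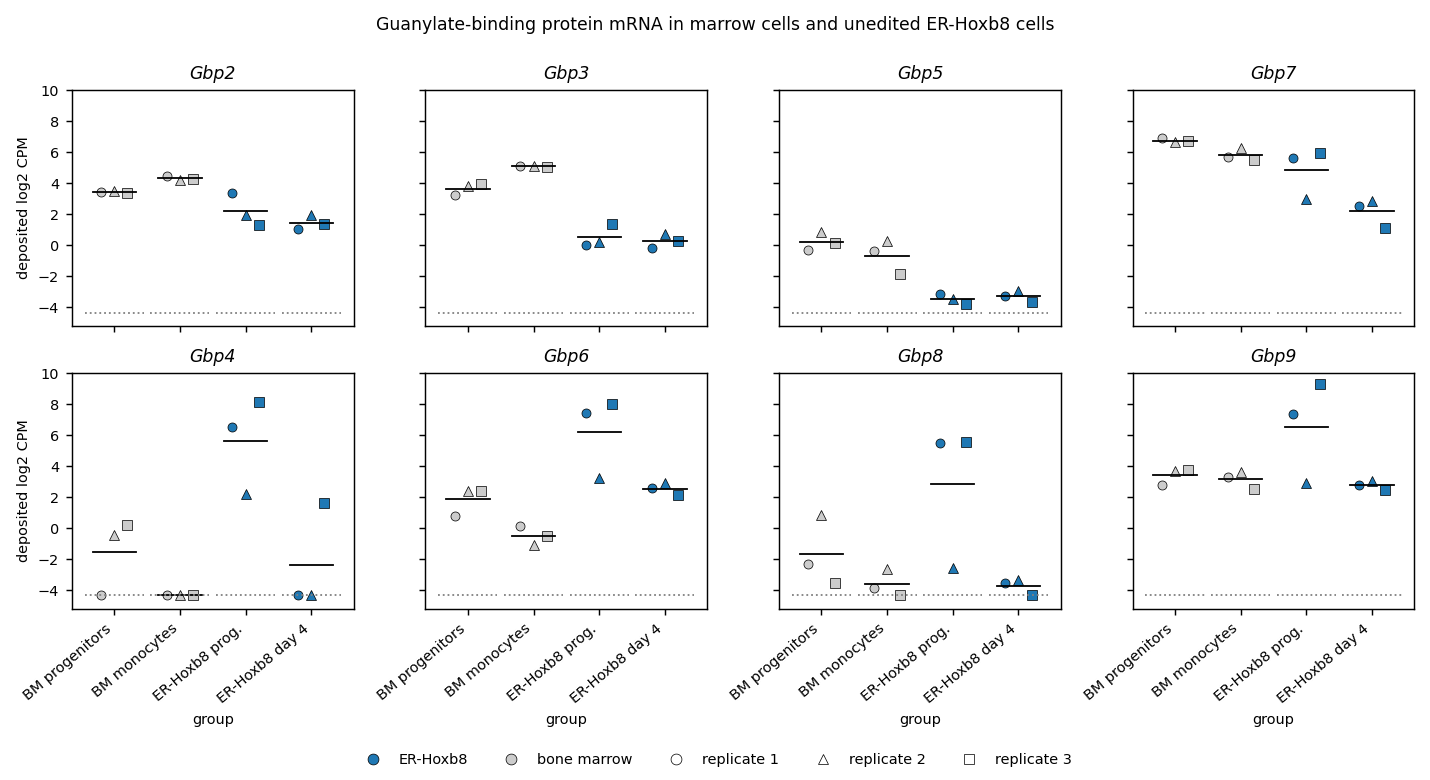
Levels (log2 CPM as deposited) of the 8 members in BM progenitors, BM monocytes, ER-Hoxb8 progenitors and ER-Hoxb8 day 4 cells, with a point for each library, a short bar for the mean and a dotted line at the lowest value of -4.34. For Gbp4, Gbp6, Gbp8 and Gbp9, replicates 1 and 3 of the ER-Hoxb8 progenitors are high and replicate 2 is lower.

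Between the progenitors, 2 of 8 members were called higher in ER-Hoxb8 cells by limma with Benjamini-Hochberg adjustment, against 4.53% of 12056 genes, and 2 lower, against 10.8%, with medians of 0.94 and -0.08. Gbp4 was higher by 7.15 (SE 1.84, adjusted p 0.0139) and Gbp6 by 4.36 (SE 1.01, adjusted p 0.00825), each in 3 of 3 libraries, and Gbp3 was lower (-3.13, SE 0.41, adjusted p 0.000207) in 3 of 3. Gbp5, at the floor in ER-Hoxb8 progenitors, was lower too (adjusted p 0.00162). Gbp4 lost its call without BM progenitor replicate 1 (adjusted p 0.0621) or ER-Hoxb8 progenitor replicate 1 (adjusted p 0.0513), with 0.00362 to 0.0621 over all alternatives. Gbp6 lost its call with only the compared groups (adjusted p 0.0567, and 2.92e-05 to 0.0735 over all alternatives). Gbp8 and Gbp9 were called without ER-Hoxb8 progenitor replicate 2, and Gbp7 without replicate 3. From day 0 to day 4 limma called 0 of 8 members, against 0% of genes, with 5 at an unadjusted p under 0.05 and medians of -3.16 for the members, -3.66 with Gbp8 at its bound, and -0.01 for all genes. Without ER-Hoxb8 progenitor replicate 2, those 5 were called lower, Gbp4, Gbp6, Gbp7, Gbp8 and Gbp9, against 1.81% of genes. Between BM monocytes and BM progenitors limma called 0 of 8, against 6.84% of genes in either direction, with 2 at an unadjusted p under 0.05 and medians of -0.91 and -0.09. Of 30 pathway genes tested, 1 was called higher in ER-Hoxb8 than in BM progenitors, Casp4 (2.13), against 4.53% of all genes, and 5 lower, against 10.8%, Irf8 (-3.29), Tgtp1 (-6.12), Tgtp2 (-5.78), Gm12250 (-3.34) and Ciita (-4.45), while 3 were called higher in BM monocytes, against 2.94%. At day 4 limma called 0, with 4 at an unadjusted p under 0.05.

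Members were also compared with each other across libraries, as a description. Over the 33 baricitinib libraries, the Pearson r of each member with the mean of the others ran from 0.674 for Gbp8 and 0.771 for Gbp4 to 0.977 for Gbp3. Over the 27 libraries of macrophages, MLCs and microglia it ran from 0.698 for Gbp7 to 0.979 for Gbp5. Points of these correlations share groups and scaling, and they follow the differences between groups given above. Outside the family, genes with levels most like the mean of the members were Ifit2 (r 0.988), Pyhin1 (0.987), Rnf213 (0.986) and Igtp (0.986) among 11144 genes in the baricitinib libraries. In the 27 libraries the 5 most like were Cxcl9 (0.981), Serpina3f (0.98), Tgtp1 (0.972), Tgtp2 (0.97) and Serpina3g (0.965) among 12509, where the members' rise in ER-Hoxb8 MLCs, which chose them, sets most of the pattern.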

How the data were processed

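Levels came from 1 table of 92 libraries with 29956 named genes. The authors deposited log2 CPM, made with kallisto 0.46.0 on GRCm39 transcripts and TMM scaling in edgeR. A row with no name, 0.0023 to 0.0584% of a library, was left out. CPM was recovered by taking off each set's lowest value, at a prior count of 2, and the mean depth of the sets was 13.7 to 40.6 M counts.

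Members and lists were chosen with earlier results of these data known. Named are all members, Adar, Gbp11, the pathway and marker genes and the 5 genes most like the members, of which 2 genes are not reported here and were left out of list counts and sums. Limma 3.58.1 (R 4.3.3) fitted group means with a trend to genes above 1 CPM in at least 3 libraries (6 in the brain set), p was adjusted by Benjamini-Hochberg across these genes, and the code was tested on simulated data. Equal replicate numbers went together (at least 3 pairs, each r above 0.1) in sgRNA 1 over NTC progenitors and ER-Hoxb8 day 4 over day 0, where 0 members were called with pairs as blocks too. Alternatives were no filter, log2(CPM + 1), quantile normalization, a fold limit of 1, only the compared groups, the replicate block, libraries left out and NTC macrophage replicate 2 included.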

Additional observations from a re-analysis of the deposited data

Results flagged for a closer look

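In groups of 4 to 10 libraries, 6 of 46 member levels looked at had a library far from the others, where the gap to the next library is a large part of the range of the group. Chance gives about 1 in 20 groups. In BMD MLCs, Gbp4 was at 0.23 in replicate 5 against -3.59 in the next library, and Gbp6 was lowest in replicate 4, at 0.74 against 1.31. In ER-Hoxb8 MLCs, Gbp4 was at -3.62 in replicate 4, with the next at 5.93. In microglia replicate 8, Gbp2 was lowest, at -0.05 against 3.25, and Gbp3 was highest, at 5.4 against 3.59, and this library stood apart from the other microglia over all genes too (r between 0.859 and 0.906). In NTC macrophages with 0.4 uM baricitinib, Gbp6 was lowest in replicate 2, at -1.46 against -0.79. The causes were not tested.

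A second kind of result is an effect that differs between groups by a test of the difference itself. The KO effect of sgRNA 1 was larger in macrophages than in progenitors for 6 of 7 members, by 5.60 for Gbp2, 5.96 for Gbp3, 3.83 for Gbp4, 5.03 for Gbp6, 4.72 for Gbp7 and 3.80 for Gbp9, and Gbp4 lost its call when any of 10 of the 11 libraries was left out. The effect of 10 uM baricitinib was more negative in KO than in NTC macrophages for 4 of 7 members, by -4.56 for Gbp2, -3.98 for Gbp3, -4.58 for Gbp6 and -5.74 for Gbp7. Gbp3 lost its call when any of 10 of the 13 libraries was left out and Gbp2 when any of 3 was, so that 2 to 4 members were called. With no filter Gbp2 and Gbp3 lost their calls as well, which gave 2. In NTC macrophages these 4 genes were lower than in KO without drug, which limits how far they could fall there.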

How the results depend on the processing

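Counts below are of members called, and the cause was not tested for any change. Depth limits Gbp4, Gbp5 and Gbp8 most, since they are at or near the floor in most macrophages in vitro, and differences against such groups move with the prior count. Groups of 2 to 4 libraries leave calls open to change by 1 library. A fit that leaves 1 library in a group assumes that it varies like the other groups. Quantile normalization moved the median of all genes by over 0.1 in 2 comparisons, microglia over BMD macrophages (from -0.06 to 0.08) and the KO effect in macrophages minus progenitors (from 0.08 to -0.04).

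For members at an adjusted p below 0.05 with the choices as reported, 913 values under alternatives stayed on the same side of the threshold, 103 lost it, 11 passed it and 0 reversed, and gains of other members are not in this count. Under log2(CPM + 1), the median of ER-Hoxb8 MLCs over ER-Hoxb8 macrophages moved to 7.35, and the counts were 0 for KO over NTC at 10 uM, 3 for BMD MLCs over BMD macrophages (without Gbp5 and Gbp6) and 2 for microglia over BMD macrophages (without Gbp5 and Gbp8), while Gbp3 in NTC macrophages over progenitors (-1.59) and Gbp5 in ER-Hoxb8 over BM progenitors (-1.04) fell short of the limit. With a fold limit of 1 they were 8 for sgRNA 2 macrophages over progenitors, 1 for BMD MLCs over microglia and 1 for BM monocytes over progenitors. With no filter they were 3 for KO over NTC at 0.4 uM (without Gbp2 and Gbp9), 0 at 10 uM and 2 for the 10 uM effect in KO minus NTC (without Gbp2 and Gbp3). With only the compared groups they were 0 for KO over NTC at 0.4 uM, 1 (Gbp6) for 10 over 0 uM in NTC and 1 for BM monocytes over progenitors. Quantile normalization gave 1 for 0.4 over 0 uM in KO. Leaving out the YSWT microglia libraries gave 1 for BMD MLCs over microglia. With the replicate block, a pairing by replicate number, they were 0 for KO over NTC at 0.4 uM, 1 (Gbp6 again) for 10 over 0 uM in NTC, 1 for BMD MLCs over microglia, 0 for ER-Hoxb8 over BMD macrophages and 1 for BM monocytes over progenitors. For sgRNA 1 over NTC macrophages the block gave 4 members, without Gbp4 and Gbp9, against 6, and in ER-Hoxb8 over BM progenitors it took out Gbp6. The KO and NTC macrophages share 2 numbers (r 0.16 and 0.15), fewer than the 3 asked of pairs. In the other comparisons named here not all numbers went together, and in the 2 whose numbers paired libraries the block changed no call of a member.

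With 1 library left out at a time, the medians of ER-Hoxb8 MLCs ran from 8.39 to 9.71 over ER-Hoxb8 macrophages, 6.99 to 7.81 over BMD MLCs and 7.32 to 8.09 over microglia. The highest of each came without ER-Hoxb8 MLC replicate 4, and the lowest without ER-Hoxb8 macrophage replicate 3, ER-Hoxb8 MLC replicate 3 and microglia replicate 8 in turn. Counts ran from 0 to 6 for KO over NTC at 0.4 uM, 0 to 1 at 10 uM, 0 to 6 for 0.4 over 0 uM in KO and 2 to 4 for the 10 uM effect in KO minus NTC. They ran from 0 to 1 for BMD MLCs over microglia, 0 to 2 for ER-Hoxb8 over BMD macrophages, 0 to 2 for GFPHox over WTHox, 0 to 5 for day 4 over day 0 and 3 to 6 for ER-Hoxb8 over BM progenitors. The libraries behind these ranges of counts are named beside each result above.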

Other observations

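NTC macrophage replicate 2 shares its lowest value with no other library and entered no comparison except an alternative, which called 6 members higher in sgRNA 1 macrophages. Its levels were 2.05 for Gbp2, 0.89 for Gbp3, -3.09 for Gbp4, -1.41 for Gbp5, 1.96 for Gbp6, 2.31 for Gbp7, -1.35 for Gbp8 and 2.23 for Gbp9, and 5.86 for Adar.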
